A study of Mus musculus with 2 samples.

Results

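The endothelial cells of 1 of 2 single-cell RNA libraries of Balb/c mouse brain were described, from a series on breast cancer metastasis to the brain. They were chosen among the 10842 barcodes of the library titled positive by read counts of their own genes. A barcode was taken when Cldn5, Flt1, Pecam1, Slco1a4 and Ly6c1 summed to at least 15 UMIs (unique molecular identifiers, each standing for 1 captured RNA molecule) and the leukocyte genes Csf1r and Laptm5 to at most 3. This gave 1507 barcodes, of which 619 with at most 8 UMIs of the epithelial genes Epcam, Krt8 and Krt18 were described and 888 above that limit served as a check. The 619 are 5.71% (exact 95% interval 5.28 to 6.16%) of the library and part of 21259 barcodes in the series. Both libraries came from brain tissue of Balb/c mice and carry the tag TNBC (triple-negative breast cancer), with no age or number of animals in the labels. In the labels, the treatment field of the control-titled sample reads as carrying 4T1 (a mammary carcinoma line of mouse) and that of the positive-titled sample as free of it, the reverse of the titles. Names below follow the titles, and nothing is read as an effect of metastasis.

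Brain endothelial cells line the vessels of the brain and form the blood-brain barrier, with tight junctions that seal the gaps between cells and transporters that select what passes. Arterial, capillary and venous endothelium differ in the genes they use, and leukocytes enter the brain mainly through venules, where chemokines and adhesion proteins are shown to the blood. Interferon gamma, a cytokine of T cells and natural killer cells, induces guanylate-binding proteins, immunity-related GTPases, antigen-presenting proteins, the chemokines Cxcl9, Cxcl10 and Cxcl11, and Ubd. Ubd, also called FAT10, is a ubiquitin-like protein that marks proteins for the proteasome.

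The upstream sequences of 4 of these genes are shown because the contrasts below turn on Ubd and on interferon-induced genes that were higher in the titled positive library. Each is the run of 250 bases before the gene's start in RefSeq on GRCm38.p6, 5′ to 3′ on the gene's strand. Capitals mark matches to a gamma-activated site (GAS, TTCNNNGAA) or an interferon-stimulated response element (ISRE, GAAANNGAAA), both searched on both strands.
Ubd: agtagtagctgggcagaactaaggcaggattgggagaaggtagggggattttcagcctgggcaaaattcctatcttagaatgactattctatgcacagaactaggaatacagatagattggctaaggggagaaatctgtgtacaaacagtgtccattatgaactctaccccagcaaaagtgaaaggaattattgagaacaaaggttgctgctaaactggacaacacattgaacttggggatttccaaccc
Igtp: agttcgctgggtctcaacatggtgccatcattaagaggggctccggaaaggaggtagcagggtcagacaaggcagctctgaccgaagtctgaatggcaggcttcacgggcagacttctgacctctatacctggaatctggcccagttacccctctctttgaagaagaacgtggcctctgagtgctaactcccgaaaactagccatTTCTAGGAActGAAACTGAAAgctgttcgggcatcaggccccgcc
Gbp5: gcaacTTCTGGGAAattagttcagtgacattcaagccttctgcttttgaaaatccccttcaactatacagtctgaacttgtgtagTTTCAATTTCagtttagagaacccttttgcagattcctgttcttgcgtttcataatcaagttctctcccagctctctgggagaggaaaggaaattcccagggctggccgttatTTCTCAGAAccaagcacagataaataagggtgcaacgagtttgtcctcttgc
Cxcl10: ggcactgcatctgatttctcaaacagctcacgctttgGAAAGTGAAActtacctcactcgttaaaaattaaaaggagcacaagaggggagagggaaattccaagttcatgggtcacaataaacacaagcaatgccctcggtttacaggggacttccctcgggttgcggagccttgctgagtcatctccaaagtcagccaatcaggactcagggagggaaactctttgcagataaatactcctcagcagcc
The window of Ubd, at chr17:37193642-37193891 on the plus strand, held neither motif. That of Igtp (chr11:58199306-58199555, plus strand) held a GAS match at bases 45 to 37 before the start and an ISRE match at bases 34 to 25, which do not overlap. That of Gbp5 (chr3:142496684-142496933, plus strand) held GAS matches at bases 245 to 237 and 52 to 44 and an ISRE match on the opposite strand at bases 165 to 156. That of Cxcl10 (chr5:92348890-92349139, minus strand) held 1 ISRE match, at bases 213 to 204. Of 32851 windows of the same length in the table, 7.02% held a GAS match, 2.98% an ISRE match and 9.67% either. Of the 16 interferon gamma list genes with a window, among 20 in the list, 13 held a match, as did 9 of 14 of the type I interferon list, 3 of 13 venous genes, 2 of 16 barrier transporter genes and 2 of 10 MHC class I genes. A list gene was counted when any of its windows held a match, whereas the shares before are of single windows, so the 2 are not like measures. A match is a string of letters and shows no binding.

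The label of endothelial cells held for 91 of the 619 barcodes. Of the 619, 491 (79.3%) had no UMI at all of Cldn5, Flt1, Pecam1 and Slco1a4 and 37 had 1 to 4, so these 528 were carried into the rule by Ly6c1. Ly6c1 encodes a small surface protein of the Ly6 family, at chromosome 15, 75044018 to 75048830, found on brain endothelium and on some leukocytes, and its near-identical neighbour Ly6c2 makes its count uncertain. It held 94.7% of the 57493 UMIs of the summed genes in the 619. In the titled control library the same rule gave 815 barcodes, of which 804 (98.7%) had at least 5 UMIs of the other 4 genes, and Ly6c1 held 65.4% of the sum. The split at 5 UMIs of the other 4 genes was made after the values were seen.

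**Figure D1:**
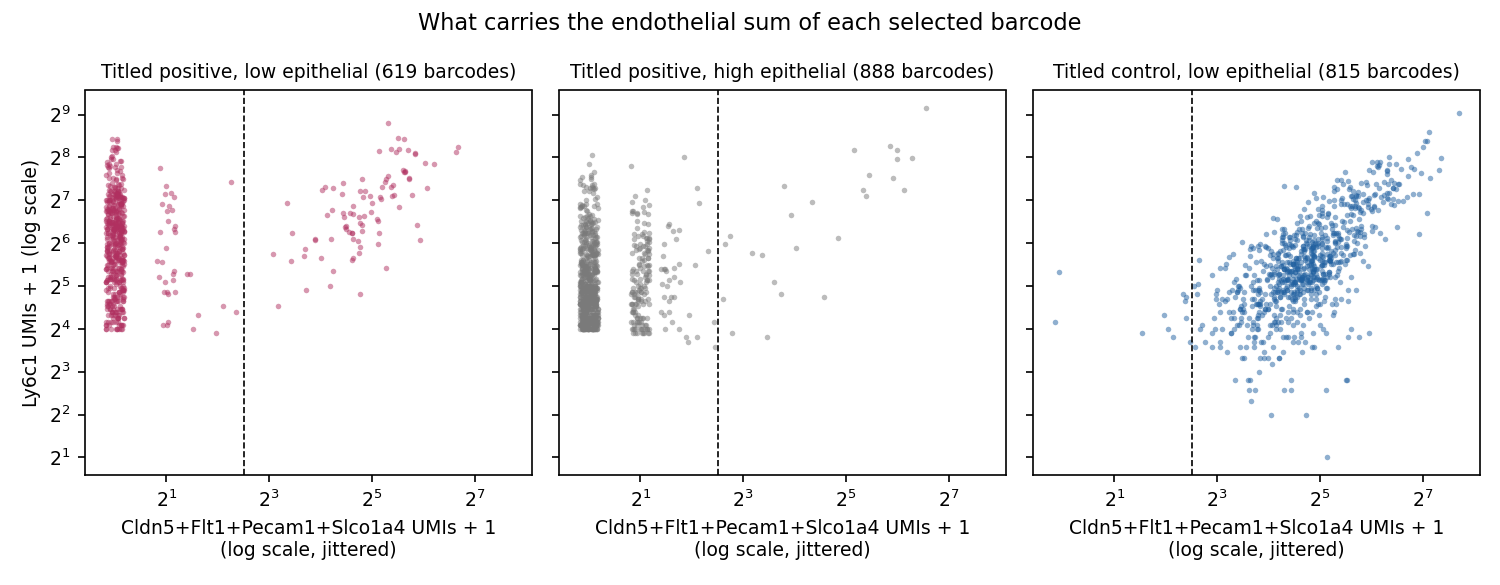
Ly6c1 UMIs (y axis) against the summed UMIs of Cldn5, Flt1, Pecam1 and Slco1a4 (x axis), both on log axes, 1 point per barcode meeting the rule, for the 619 low epithelial and 888 high epithelial barcodes of the titled positive library and the 815 of the titled control library. The dashed line at 5 UMIs leaves 91 of the 619 to its right, against 804 of the 815.

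The 528 barcodes carried by Ly6c1 were led by genes of oligodendrocytes, the cells that form myelin. Their summed counts reached 3833 CPM (UMIs per 1000000 of the group's sum) of Mbp and 5579 CPM of Mag, which encode myelin proteins, and 7366 CPM of Cldn11, a claudin of myelin. Cldn5, the main tight junction protein of brain vessels, stood at 5.83 CPM and Pecam1, a junction protein of all endothelium, at 2.19 CPM, levels that the split at 5 UMIs set. Of the 20 general endothelial markers listed, none of them among the rule's genes, Cdh5, Kdr, Robo4, Sox18, Sox17 and Mmrn2 had no UMI there, and all 20 summed to 138 CPM, against 8616 CPM in the 91. Among the 528, 499 (94.5%, 92.2 to 96.3%) had at least 30 UMIs of Mbp, Mobp, Mag and Cldn11. Of the remaining 29, 26 had at least 3 UMIs of the myeloid genes Ly6c2 and Lyz2 and 3 had at least 3 UMIs of T cell receptor genes. These 528 are called here by the gene that carried them and are not counted as endothelial.

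Ly6c1 was high in barcodes with oligodendrocyte genes in 1 library only of the 2. Among barcodes chosen by at least 30 UMIs of Mbp, Mobp, Mag and Cldn11, 496 of 792 (62.6%, 59.2 to 66.0%) in the titled positive library had at least 15 UMIs of Ly6c1, and 1 of 3614 (0.0277%, 0.000701 to 0.154%) in the titled control library. Their summed level was 10210 CPM and 78.4 CPM. Of the other cells of the titled positive library, reference barcodes with carcinoma genes held 52.2 CPM of Ly6c1 and those with macrophage genes 56.8 CPM, both chosen to have at most 1 UMI of the 5 rule genes. That choice limits Ly6c1 there. The 862 high epithelial barcodes carried by Ly6c1, which hold carcinoma genes, stood at 3106 CPM of Ly6c1, though the rule chose them by that gene. That choice fixed their level of Ly6c1 but not their number, 862 of the 10842 barcodes (7.95%). At least 11 UMIs of Ly6c1 were thus also found in barcodes with carcinoma genes. Ly6a, a neighbour of Ly6c1 in the family and an interferon-induced gene, stood at 29246 CPM in the 528, 8616 CPM in the 91 and 1442 CPM in the 804.

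The 91 barcodes that kept the label carried the general genes of endothelium. Their other 4 rule genes summed to 7 to 110 UMIs per barcode, with a median of 28, and 82 of them had at least 15. Of the 20 general endothelial markers all were detected, and the sum of 8616 CPM compares with 9582 CPM in the 804 titled control barcodes. The genes highest over the library average were Ctla2a (7472 CPM), Cldn5 (2090 CPM), Ackr1 (1916 CPM), Slco1a4 (1648 CPM) and Scgb3a1 (1346 CPM), followed by Esam, Tmem252 and Vwf. By the fixed markers they are called endothelial-like. They made up 0.839% (0.676 to 1.03%) of the titled positive barcodes and the 804 made up 7.72% (7.21 to 8.25%) of the titled control barcodes. These shares can move with tissue dissociation, cell calling and the number of carcinoma cells, whose part in them was not tested.

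The values on each side of the rule's limits are given as a description. Of 27 barcodes with a sum of 15 to 17 UMIs and 40 with 12 to 14, none had 5 UMIs of the other 4 genes. Of 70 barcodes with 6 to 8 epithelial UMIs, 14 had them, as did 6 of 23 with 9 to 11. Of 58 barcodes with 2 to 3 leukocyte UMIs, 4 had them, as did 3 of 47 with 4 to 5.

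The 91 barcodes held 572657 UMIs, with a median of 5239 per barcode, and the 804 held 4457194, with a median of 3943. Over whole libraries the median was 7383.5 UMIs for titled positive and 4230 UMIs for titled control. The Scrublet method called 1 of the 91 a doublet and 63 of the 804. Barcode sequences shared by both libraries numbered 149, of which 9 were among the 619 and none among the 91. With 1 library per group no difference has a replicate check, cells are not replicates, and no p-value was computed. Intervals are exact (Poisson for CPM, Clopper-Pearson for shares) at 95% and cover counting error only.

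The markers of the rule and label were compared first between the 91 and the 804. Cldn5 stood at 2090 CPM (1974 to 2212) in the 91 and 2529 CPM in the 804. Flt1, a VEGF receptor, stood at 1004 and 1372 CPM, Pecam1 at 520 and 469 CPM, and Slco1a4, an organic anion transporter of the barrier, at 1648 and 1310 CPM. These 4 genes chose the cells, so their levels are no finding. Lrg1, a secreted glycoprotein of venules induced in inflammation (chromosome 17, 56119678 to 56122001), was not in the rule. It stood at 2674 CPM (2541 to 2811) in the 91 and 113 CPM in the 804, a log2 ratio of 4.56 (4.42 to 4.71). It was detected in 73.6% of the 91 barcodes and 10.3% of the 804, and per barcode it ran from 0 to 153 UMIs per 10000, with a median of 10.5, against 0 to 39.2 with a median of 0. The barcodes overlapped at 0 and in the low range. Among other cells of the titled positive library it stood at 13.8 CPM in the carcinoma reference and 33.7 CPM in the oligodendrocyte-gene reference. Over all barcodes of that library, the 91 among them, Lrg1 stood at 77.2 CPM, above both references.

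**Figure D2:**
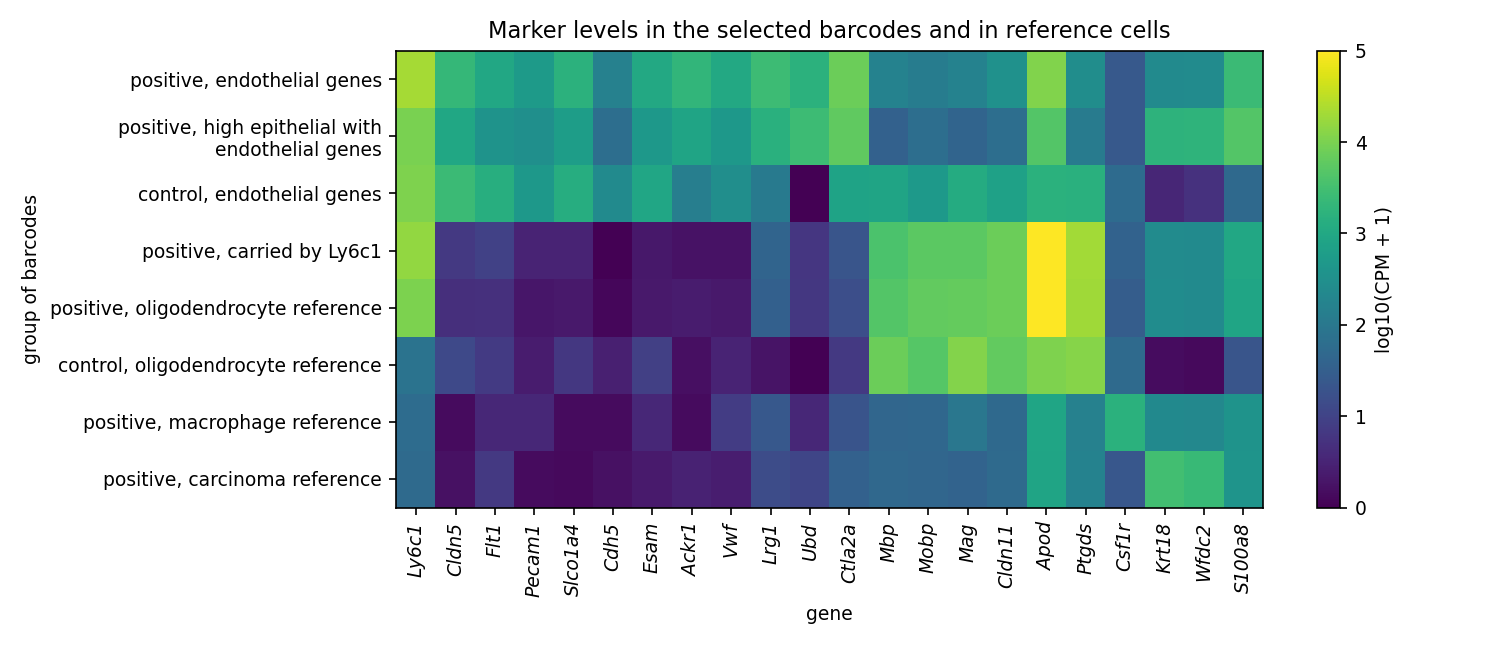
Level of 22 genes (x axis) in 8 groups of barcodes (rows) as log10 of CPM plus 1, by colour. The endothelial genes are high in the 91 and the 804 and near 0 in the 528, where the oligodendrocyte genes and Ly6c1 are high; Ubd and Lrg1 are high in the 91 but not in the 804.

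Because the 528 barcodes belong to the rule, the comparison fixed by the rule mixed them with the 91. Over all 619 against 815, 3298 genes had a mean level of at least 50 CPM, with a median log2 ratio of -0.37. At least 2-fold higher in the 619 were 375 genes (11.4%), and at least 2-fold lower were 703 (21.3%). Of 20 general endothelial markers tested 19 were at least 2-fold lower and 0 higher, with a list median of -2.55, and of 18 barrier transporters tested 17 were lower and 0 higher. Of 8 oligodendrocyte genes tested 7 were at least 2-fold higher. The 10 genes with the highest ratio, by the rule for named genes, were Ubd, BC100530, Plin4, Serpina3n, Il12rb1, Apod, Tubb3, Gm4951, Itgad and Ngp, and Serpina3n and Apod stood higher in the 528 than in the 91. Among the 10 with the lowest were Hba-a2, Hbb-bt, Hba-a1, Hbb-bs, Alpl, Gkn3, Nrep, Akr1c14 and Car4. The comparisons of endothelial genes that follow therefore use the 91 and the 804, a choice made after these values were seen.

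Between the 91 and the 804, genes of inflammation and of venous endothelium were higher and genes of capillary and arterial endothelium lower in the titled positive library. Of 3413 genes tested, 263 (7.71%) were at least 2-fold higher and 321 (9.41%) at least 2-fold lower, with a median log2 ratio of -0.07. All counts of list members below are read against those shares. A gene under 33.3 CPM in its lower group could reach the mean of 50 CPM only by being at least 2-fold apart, so the filter fixed its call. This held for 4 of the 14 higher interferon gamma genes (Cd274, Gm12250, Tgtp1 and Tgtp2) and 3 of 5 chemokines (Cxcl9, Cxcl10 and Ccl5). It also held for 3 of 5 class II genes, 3 of 8 acute-phase genes, 2 of 8 type I interferon genes, Angpt2 and Ubd. It held for 1 of 5 lower arterial genes (Alpl), and for none of the higher venous and none of the lower capillary genes. The lists overlap in places (Lrg1 and Lcn2 are in the venous and acute-phase lists), and they were chosen with earlier results of these data known.

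**Figure D3:**
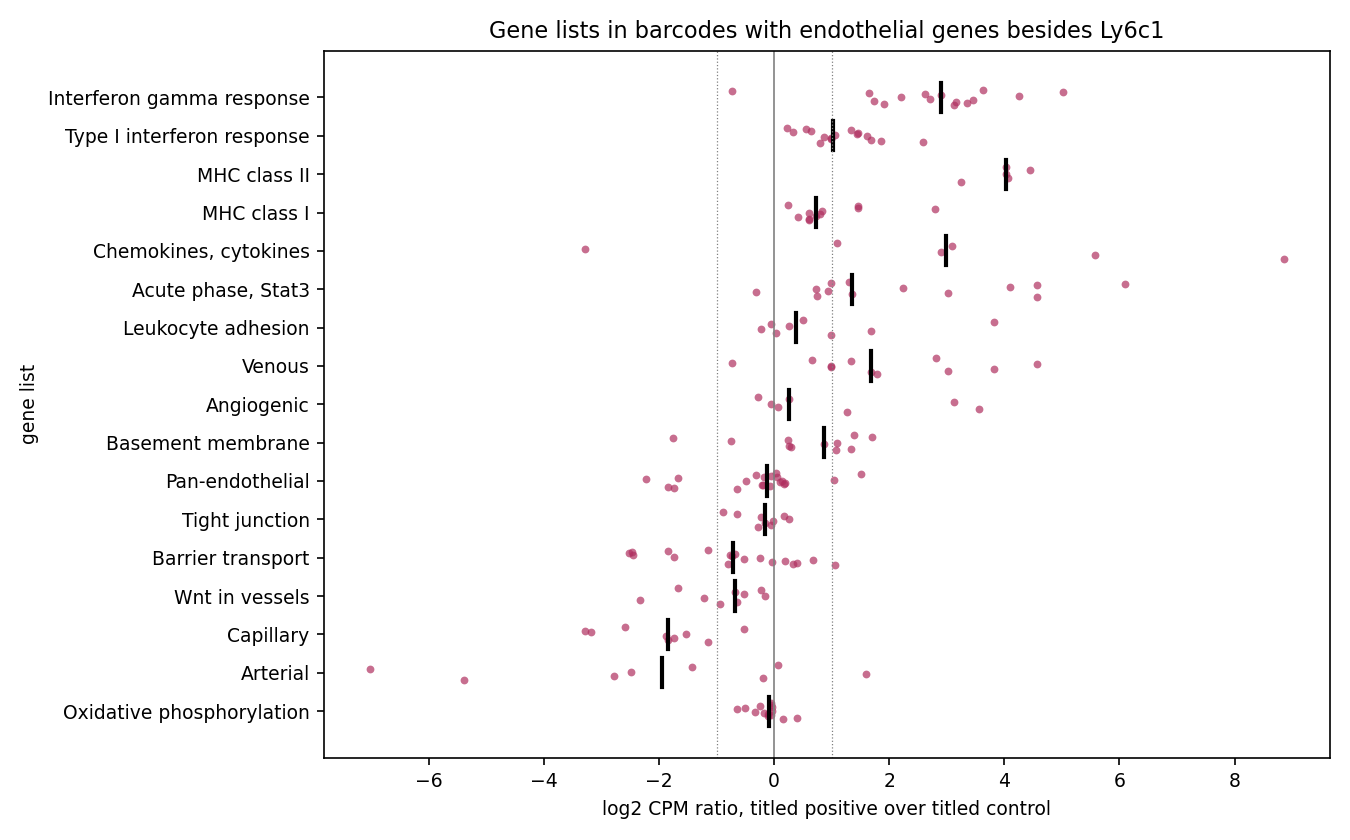
Log2 ratio of CPM in the 91 titled positive over the 804 titled control barcodes (x axis), 1 point per tested gene, by gene list (rows), with the list median as a bar and dotted lines at 2-fold in each direction. The interferon gamma, MHC class II and chemokine lists lie to the right with medians of 2.91, 4.03 and 2.99, and the capillary and arterial lists to the left with medians of -1.84 and -1.95.

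Of the 15 interferon gamma list genes tested, among 20, 14 were at least 2-fold higher in the 91 and 0 lower, with a median log2 ratio of 2.91. Gbp4, a guanylate-binding protein, stood at 2244 CPM against 219 CPM, a log2 ratio of 3.36 (3.23 to 3.48), and was detected in 97.8% against 41.8% of barcodes. Per barcode it ran from 0 to 103 UMIs per 10000 with a median of 16.5 in the 91, and from 0 to 32.1 with a median of 0 in the 804, so the ranges overlapped below 32.1. Iigp1, an immunity-related GTPase, stood at 1425 against 74.5 CPM (4.26), Igtp of the same family at 838 against 76.7 CPM (3.45), and Gbp5 at 382 against 42.9 CPM (3.16). Irf1, a transcription factor of the pathway, stood at 227 against 72.5 CPM (1.65). Cd274, which encodes the T cell inhibiting ligand PD-L1, had 64 UMIs against 15, a log2 ratio of 5.02 (4.23 to 5.97). The member that was not 2-fold apart, the receptor subunit Ifngr1, stood at 61.1 against 102 CPM (-0.72).

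Other cells of the titled positive library also held interferon transcripts, so RNA from them could enter these barcodes. All 14 genes stood higher in the 91 than in the carcinoma reference, 11 of 14 higher than in the macrophage reference, and 8 of 14 higher than in the oligodendrocyte-gene reference. The carcinoma and macrophage references were chosen to be low in the rule genes, so they left out barcodes high in Ly6c1. Whether the 14 genes also stood higher in the 91 than in those left out was not tested. This limit also holds for the later comparisons with the carcinoma and macrophage references. Gbp4 stood at 310, 730 and 206 CPM in those 3 references, all below its 2244 CPM in the 91. Igtp stood at 1640 CPM in the oligodendrocyte-gene reference, above its 838 CPM in the 91, and in the same reference of the titled control library at 2.33 CPM. Free RNA, estimated from Krt7, Krt19, Cldn7, Wfdc2 and Msln in the 91 and from oligodendrocyte genes in the 804, came to 12.9% and 21.1% of UMIs.

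Of the 16 type I interferon genes tested, among 20, 8 were at least 2-fold higher and 0 lower, with a median of 1.03. Ifitm3, a membrane protein that restricts virus entry, stood at 8193 against 3013 CPM (1.44) and Ifit2 at 141 against 23.6 CPM (2.59). Isg15, a ubiquitin-like protein, stood at 543 against 275 CPM (0.98), just short of 2-fold. All 8 stood above the carcinoma reference, 6 above the macrophage reference and 2 above the oligodendrocyte-gene reference.

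Among MHC class I genes, those of the peptide transporter complex were at least 2-fold higher and the class I molecules themselves were not. Of 11 tested class I genes 3 were at least 2-fold higher and 0 lower, and these 3 were the peptide transporter subunits Tap1 (292 against 42.2 CPM, log2 ratio 2.79) and Tap2 (1.46) and their partner Tapbp (1.46). All 3 stood above the carcinoma reference, 1 above the macrophage and 2 above the oligodendrocyte-gene reference. The class I heavy chain H2-K1 stood at 5000 against 3279 CPM (0.61) and its partner B2m at 8796 against 6610 CPM (0.41). Erap1, which trims class I peptides, stood at 61.1 against 52.1 CPM (0.25). Of the 6 genes of Ubd and the immunoproteasome, the form of the proteasome that makes class I peptides, 5 were at least 2-fold higher, namely Psmb8 (1359 against 449 CPM, log2 ratio 1.60), Psmb9 (1.36), Psmb10 (602 against 214 CPM), Ubd and Psme2. Of the 5, 2 stood above the carcinoma, 3 above the macrophage and 4 above the oligodendrocyte-gene reference. Psme1 stood at 662 against 337 CPM (0.98). H2 genes are a family of near-identical copies, so their counts are uncertain.

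All 5 MHC class II genes tested, among 7, were at least 2-fold higher, with a median of 4.03. Cd74, the invariant chain, stood at 1895 against 87.3 CPM (4.44), and H2-Ab1 at 393 against 23.3 CPM (4.07). Only 1 of the 5 stood above the carcinoma reference and none above the macrophage reference, where Cd74 reached 2002 and 17238 CPM, while all 5 stood above the oligodendrocyte-gene reference, where it was at 805 CPM. The part of RNA from other cells in these levels was not tested.

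Chemokines that draw T cells were at least 2-fold higher, and Cxcl12, which brain vessels also make at rest, was lower. Of 6 tested, among 17, 5 were at least 2-fold higher (Cxcl9, Cxcl10, Cxcl11, Ccl5 and Csf1, median 2.99) and 1 lower. Cxcl11 stood at 915 against 123 CPM (2.90) and in 40.7% against 14.8% of barcodes, Cxcl10 at 314 against 6.51 CPM (5.57), and Cxcl9 had 89 UMIs against 1, with a log2 ratio of 8.86 and an interval from 6.92 to 14.76. Cxcl11 stood above all 3 references (25.9 CPM in carcinoma, 87.3 in macrophage and 8.73 in oligodendrocyte-gene barcodes). Cxcl9 and Cxcl10 were below the macrophage reference (340 and 374 CPM), as was Ccl5 with 141 against 3717 CPM. Cxcl9, Cxcl10 and Cxcl11 lie side by side on chromosome 5, and Cxcl11 is annotated as a polymorphic pseudogene in the reference strain, so its transcript in Balb/c is reported as counted. Cxcl12 stood at 68.1 against 676 CPM (-3.29).

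Venous genes were higher in the 91. Of 11 tested, among 16, 7 were at least 2-fold higher and 0 lower, with a median of 1.69, and all 7 stood above the 3 references. Ackr1, the atypical chemokine receptor of venules (chromosome 1, 173331886 to 173333750), stood at 1916 against 136 CPM, a log2 ratio of 3.82 (3.67 to 3.96), and was detected in 41 of 91 barcodes (45.1%, 34.6 to 55.8%) and 70 of 804 (8.71%, 6.85 to 10.9%). Per barcode it ran from 0 to 207 UMIs per 10000 in the 91 and from 0 to 82.3 in the 804, with a median of 0 in both. Vwf, the clotting factor carrier, stood at 1025 against 296 CPM (1.79), Vcam1, a leukocyte adhesion protein, at 981 against 305 CPM (1.69) and Tmem252 at 1069 against 151 CPM (2.82). Lcn2, an iron-carrier binding protein of inflamed endothelium and of carcinoma, stood at 2207 against 271 CPM (3.02), with 1142 CPM in the carcinoma reference. Over the whole titled positive library Lcn2 stood at 2001 CPM, close to its level in the 91. It reached 5341 CPM in the 862 high epithelial barcodes carried by Ly6c1, which the carcinoma reference left out. Icam1 stood at 159 against 80.8 CPM (0.98) and the venous transporter Slc38a5 at 334 against 558 CPM (-0.74). Of 8 leukocyte adhesion genes tested 2 were at least 2-fold higher, Vcam1 and Ackr1, and 0 lower, and Icam2 stood at 533 against 521 CPM.

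Capillary genes were lower. Of 9 tested, among 10, 8 were at least 2-fold lower and 0 higher, with a median of -1.84. Itm2a, a membrane protein of barrier endothelium, stood at 803 against 4829 CPM (-2.59), and per barcode at a median of 6.18 UMIs per 10000 (0 to 35.9) against 52.4 (0 to 201). Car4, a carbonic anhydrase of capillaries, stood at 129 against 1183 CPM (-3.18), Tfrc, the transferrin receptor, at 114 against 410 CPM (-1.84), and Mfsd2a, a lipid transporter that limits transcytosis, at 112 against 248 CPM (-1.14). Of 8 arterial genes tested, among 18, 5 were at least 2-fold lower and 1 higher, with a median of -1.95. Gkn3, an arterial marker, stood at 34.9 against 1500 CPM (-5.39), and Alpl had 0 UMIs against 505, at least 21.6-fold lower counted from a floor of 3 counts in the group sum. Without the barcodes holding at least 3 UMIs of arterial genes, Gkn3 among them, the arterial median was -0.02. The arterial gene that was higher was Mgp, an inhibitor of calcification, with 2839 against 939 CPM (1.60), detected in 59.3% against 38.2% of barcodes.

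The vessel segments were not equally represented, and the lists were therefore also read within barcodes with and without Ackr1. The barcodes with at least 3 UMIs of arterial genes were 8 of 91 (8.79%) and 166 of 804 (20.6%). In the 41 and 70 barcodes with an Ackr1 UMI, 12 of 14 interferon gamma genes were at least 2-fold higher and 0 lower (median 2.39), and in the 50 and 734 without one, 14 of 15 were higher (median 2.88). Capillary genes had a median of -0.19 with Ackr1 (7 tested, 1 higher and 2 lower) and -1.83 without (9 tested, 0 higher and 7 lower). Arterial genes had a median of 0.07 with Ackr1 (2 tested, 0 higher and 0 lower) and -1.53 without (8 tested, 1 higher and 5 lower). Venous genes had a median of 0.15 with Ackr1 (14 tested, 4 higher and 3 lower) and 1.73 without (9 tested, 6 higher and 1 lower). MHC class I genes had medians of 0.02 and 1.04 and the type I interferon list medians of 0.62 and 1.45. The difference between the barcodes with and without Ackr1 was not tested.

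Barrier genes were split. Of 18 transporters tested, among 20, 6 were at least 2-fold lower and 1 higher, with a median of -0.71, and with Ackr1 the median was 0.20 and without it -0.89. The glucose transporter Slc2a1 stood at 2958 against 1423 CPM (1.06), the efflux pumps Abcb1a at 543 against 559 CPM (-0.04) and Abcg2 at 548 against 481 CPM (0.19). Lower were the organic anion transporter Slc22a8 (83.8 against 464 CPM, -2.45), the taurine transporter Slc6a6 (114 against 658 CPM, -2.52) and the iron exporter Slc40a1 (55.9 against 315 CPM, -2.47). Of 9 tight junction genes tested, among 14, 0 were 2-fold apart in either direction, with a median of -0.16 and Esam at 1036 against 915 CPM. Cdh5, the junction cadherin of endothelium, stood at 159 against 251 CPM (-0.65). Of 9 genes of the Wnt pathway that keeps the barrier, among 18, 3 were at least 2-fold lower and 0 higher. They were the Wnt inhibitor Notum (17.5 against 91.5 CPM, -2.32), the transcription factor Sox17 (61.1 against 197 CPM, -1.67) and the receptor Fzd6 (43.7 against 103 CPM, -1.21). The filter fixed the call of Notum.

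Angpt2 and other angiogenic ligands were higher, and 3 receptors were lower. Of 6 tested genes of the VEGF and angiopoietin list, 3 were at least 2-fold lower (Kdr with 114 against 381 CPM, -1.74, Tek with 101 against 368 CPM, -1.85, and Nrp1 with 34.9 against 109 CPM, -1.61) and 1 was higher. That was Angpt2, the angiopoietin that destabilises vessels, with 313 against 26.5 CPM (3.56, interval 3.22 to 3.91), detected in 50.5% against 6.97% of barcodes. The receptors Flt1 (-0.45, a rule gene) and Tie1 (105 against 111 CPM, -0.07) were not 2-fold apart. Of 7 tip cell and angiogenic genes tested, among 18, 3 were at least 2-fold higher (median 0.27), Angpt2, the peptide hormone Adm (323 against 36.8 CPM, 3.13) and Apln (80.3 against 33.7 CPM, 1.27). The tip cell gene Esm1 and the fenestra gene Plvap had 0 UMIs in the 91, against 22 and 80 UMIs in the 804. Both were below the limit of mean level for a call. Of 4 proliferation genes tested 0 were higher and 1 lower.

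Acute-phase, matrix and early response genes were also higher in part. Of 13 acute-phase genes tested, among 16, 8 were at least 2-fold higher and 0 lower (median 1.35), of which 6 stood above all 3 references. Ch25h, which makes an oxysterol in inflammation, stood at 449 against 26.2 CPM (4.09), Upp1 at 300 against 12.6 CPM (4.57), the transcription factor Cebpd at 515 against 109 CPM (2.24) and Socs3, an inhibitor of cytokine signals, at 232 against 91.5 CPM (1.35). Serpina3n stood at 346 against 4.94 CPM (6.10), with 2404 CPM in the oligodendrocyte-gene reference. Of 11 basement membrane genes tested 5 were at least 2-fold higher and 1 lower (median 0.87), with Col4a1 at 952 against 451 CPM (1.08), Col4a2 at 1.34 on the log2 scale, and Sparcl1 at 948 against 3191 CPM (-1.75). Of 13 immediate early genes tested 6 were higher and 0 lower (median 0.94), with Fos at 1624 against 676 CPM (1.27), and 3 of the 6 stood above all 3 references. These genes also respond to tissue dissociation, whose part was not tested. Of 14 oxidative phosphorylation genes 0 were 2-fold apart, with a median of -0.09.

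The 10 genes with the highest ratio in the 91 by the fixed rule were Ubd, BC100530, Stfa2, Gm5483, Stfa2l1, Tnfsf8, Ngp, Ifitm6, Serpina3n and S100a8. Each of them except S100a8 stood under 33.3 CPM in the 804, so the filter fixed its call. Of the 10, S100a8, Ngp, BC100530 and Stfa2 are genes of neutrophils and their precursors, and few barcodes held most of their UMIs. A single barcode held 47.2% of the 1458 UMIs of S100a8, 55.7% of Ngp, 57.3% of BC100530 and 70.0% of the 100 UMIs of Stfa2. Gm5483, Stfa2l1 and Ifitm6 were concentrated in the same way, with 51.6%, 62.5% and 61.4% of their UMIs in 1 barcode. The neutrophil list summed to 3887 CPM in the 91 and 105 CPM in the 804, with Ly6g at 0 in the 91, and the part of neutrophil RNA or shared droplets in these values was not tested. Tnfsf8, the ligand of CD30, was spread over 34 of the 91 barcodes, with 90 UMIs (157 CPM) against 2 in the 804, and no barcode held more than 9 of them. Among the 10 with the lowest ratio were Hbb-bs, Hba-a1, Hba-a2, Hbb-bt, Alpl, Gkn3, Akr1c14, Ltbp4 and Nrep, 4 of them haemoglobin genes of red cells, with Hbb-bs at 3.49 against 2749 CPM. Each of those named except Gkn3 stood under 33.3 CPM in the 91, so the filter fixed its call.

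Markers of other cells moved with the groups as well. The 11 carcinoma markers summed to 3264 CPM in the 91 and 337 CPM in the 804, of which Lcn2 held 2207 and 271 CPM. Wfdc2, a carcinoma gene that the rule did not use, stood at 257 CPM in the 91, 214 CPM in the macrophage reference, 243 CPM in the oligodendrocyte-gene reference and 2287 CPM in the carcinoma reference. Oligodendrocyte markers summed to 1407 CPM in the 91 and 11226 CPM in the 804, red cell markers to 6.98 and 6162 CPM, astrocyte markers to 76.8 and 1789 CPM with Aqp4 at 0 in the 91, and choroid plexus and ependymal markers to 15.7 and 8740 CPM. Markers of pericytes, which wrap the capillaries, summed to 1233 and 4469 CPM. Their part in the gene differences was not tested.

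Ubd was detected in 24 of the 91 endothelial-like barcodes and in none of the 804. The gene lies on chromosome 17, 37193892 to 37196095. The share was 26.4% (17.7 to 36.7%) in the 91, with 928 UMIs, and 16.4% (7.77 to 28.8%) among the 55 of them with at most 3 epithelial UMIs. For 0 of 804, 3 counts of the total allow a share of up to 0.373%, and the Clopper-Pearson upper bound was 0.458%. On the summed counts, 1621 CPM against 0 is at least 2408-fold higher, counted from a floor of 3 counts in the control sum. Thinned to 3000 UMIs per barcode, which left out 239 of the 804 and none of the 91, 22 of the 91 (24.2%, 15.8 to 34.3%) had a UMI. Over all 619 the share was 35 (5.65%, 3.97 to 7.78%), since 11 of the 528 (2.08%) had a UMI, 14 UMIs in all. In barcodes with carcinoma genes the share was 133 of 2008 (6.62%, and 3.07% in 1500 of them drawn at random and thinned), with macrophage genes 6 of 323 (1.86%) and with oligodendrocyte genes 20 of 792 (2.53%). Median depths were 8375, 6524 and 4726.5 UMIs, against 5239 UMIs in the 91. The share in the 91 stood above the shares in these 3 references. The carcinoma reference left out barcodes high in Ly6c1. Among the 862 high epithelial barcodes carried by Ly6c1, which hold carcinoma genes, 178 (20.6%) had a UMI, at a median depth of 12281 UMIs. The interval of that share overlapped that of the 91. In the other 26 high epithelial barcodes the share was 42.3%, above that of the 91, at a median depth of 14037.5 UMIs.

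Ubd was uneven among the 24 barcodes. The highest had 240 UMIs of Ubd among its 10833 UMIs, the next had 193, 110 and 108, and these 4 held 70.2% of all Ubd UMIs. Of the 24, 17 had at least 2 UMIs, 11 at least 10 and 7 had 1. The barcode with 240 UMIs also held 32 UMIs of Cxcl11, 63 of Ackr1, 49 of Cd74 and 35 of Gbp4, and that with 193 held 26, 44, 30 and 21. The third, with 110 UMIs of Ubd, held 40, 65, 62 and 37, and the 4th, with 108, held 26, 61, 65 and 33. The 2 barcodes with 24 and 14 UMIs of Ubd held 31 and 29 of Cxcl11 and none of Ackr1, so Ubd was found both with and without the venule gene.

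The contrast within the rule compared the 35 barcodes with Ubd and the 584 without. Of 2946 genes tested 481 (16.3%) were at least 2-fold higher and 359 (12.2%) at least 2-fold lower with Ubd. All 15 general endothelial markers tested were higher and all 8 oligodendrocyte genes lower, since 24 of the 35 and 67 of the 584 were endothelial-like. The 10 highest were Cxcl11, Trp53i11, Adamts9, Rpap3, Vsig2, Ackr1, Gbp5, Cxcl10, Upp1 and Stra6, and the 10 lowest Nap1l3, Hhatl, Ngp, Mvb12b, Hcn2, Arl8a, Acsl3, Chil3, Cntn2 and Tnfsf9. Cxcl11, Trp53i11, Adamts9, Rpap3, Vsig2 and Stra6 stood under 33.3 CPM without Ubd, and all of the 10 lowest with Ubd. The filter fixed these calls. Because most of the 584 were not endothelial-like, the contrast was repeated among the 91.

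Among the 91, the 24 barcodes with Ubd held more interferon gamma, antigen presentation and T cell chemokine transcripts than the 67 without. Of 3148 genes tested 132 (4.19%) were at least 2-fold higher and 196 (6.23%) at least 2-fold lower, with a median log2 ratio of -0.04. Of 15 interferon gamma genes 10 were higher and 0 lower (median 1.20, and 1.18 thinned to 3000 UMIs). Of 6 MHC class II genes 5 were higher and 0 lower (median 1.35, thinned 1.65, and 1.86 among barcodes with Ackr1 and 0.66 among those without), and of 11 class I genes 4 were higher and 0 lower (median 0.77, thinned 0.84). Of 7 chemokines 3 were higher and 0 lower (median 0.91, thinned 0.51, with Ackr1 4.00 and without it 0.67), and of 9 leukocyte adhesion genes 3 were higher and 0 lower (median 0.73). Of 16 type I interferon genes 1 was higher (median 0.37), and of 5 tested genes of the immunoproteasome list 0 (median 0.50). All 10 interferon gamma genes and all 4 class I genes stood above the 3 references, and the 5 class II genes above the carcinoma but not the macrophage reference. Depth differed between these barcodes, with medians of 7232.5 UMIs per barcode with Ubd and 5003 without.

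**Figure D4:**
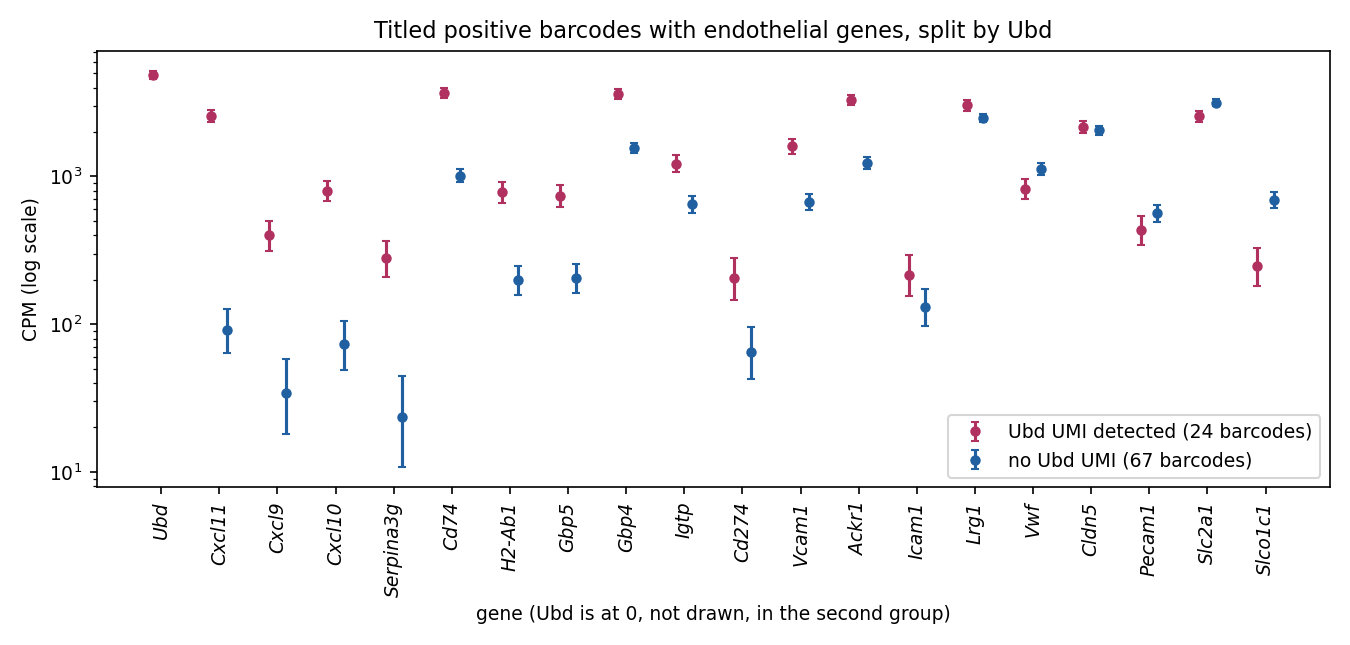
CPM of summed counts with exact 95% Poisson intervals (y axis, log scale) for 20 genes (x axis) in the 24 endothelial-like barcodes with Ubd and the 67 without. Cxcl11, Cxcl9 and Cxcl10 are higher with Ubd (2575 against 91.4 CPM for Cxcl11), the intervals of Cldn5 overlap, and Slco1c1 is lower with Ubd.

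Cxcl11 was the gene furthest apart in favour of Ubd by the fixed rule. It stood at 2575 CPM with Ubd and 91.4 CPM without, a log2 ratio of 4.80 (4.32 to 5.35) and of 4.38 after thinning. It was detected in 83.3% of the 24 barcodes, at a median of 24.7 UMIs per 10000 (0 to 87.3), and in 25.4% of the 67, at a median of 0 (0 to 15.1). Cxcl9 followed with 400 against 34.0 CPM (3.51, thinned 3.78) and Cxcl10 with 800 against 73.2 CPM (3.43, thinned 2.46). The other genes among the 10 were Serpina3g (3.50), Igkc (3.33), Rpap3 (2.99), Pgf (2.65, thinned 0.49), Slc16a6 (2.60), Pfkfb3 (2.50) and Trp53i11 (2.28). Of these, Serpina3g, Igkc, Pgf and Slc16a6 were under 33.3 CPM without Ubd, so the filter fixed their calls. A single barcode held 62.5% of the 32 Igkc UMIs, an immunoglobulin gene of B cells.

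Within the interferon gamma list, Gbp4 stood at 3607 CPM with Ubd and 1568 CPM without (1.20), with per-barcode medians of 37.1 (3.99 to 103) and 12.1 (0 to 74.3) UMIs per 10000. The ranges overlapped. Gbp5, shown above with 2 GAS matches, stood at 737 against 206 CPM (1.83), Iigp1 at 2348 against 967 CPM (1.28) and Igtp at 1222 against 648 CPM (0.91). Cd274 stood at 205 against 65.3 CPM (1.64). In the class II list Cd74 stood at 3670 against 1014 CPM (1.86) and H2-Ab1 at 785 against 199 CPM (1.98), and the Cd74 medians per barcode were 32.0 (4.99 to 144) and 8.36 (0 to 47.5) UMIs per 10000. The level with Ubd was above, and that without Ubd below, the 2002 CPM of Cd74 in the carcinoma reference.

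Of the venous genes 2 of 11 were at least 2-fold higher with Ubd and 0 lower (median 0.05). They were Ackr1 (3291 against 1233 CPM, 1.42) and Vcam1 (1601 against 674 CPM, 1.25). Ackr1 was detected in 14 of 24 barcodes with Ubd (58.3%, 36.6 to 77.9%) and 27 of 67 without (40.3%, 28.5 to 53.0%), intervals that overlap. Lrg1 stood at 3028 against 2498 CPM (0.28) and Vwf at 827 against 1123 CPM (-0.44). Of 14 acute-phase genes 2 were higher and 1 lower, Upp1 being higher (637 against 133 CPM, 2.25) and Serpina3n lower (142 against 447 CPM, -1.63). Ctla2a, a protease inhibitor homologue, stood at 12021 against 5215 CPM.

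Barrier transporters were lower with Ubd. Of 17 tested 5 were at least 2-fold lower and 0 higher, with a median of -0.70 (thinned -0.76). Slco1c1, the thyroid hormone transporter, stood at 247 against 692 CPM (-1.47), Slc22a8 at 26.3 against 112 CPM (-1.97), Tfrc at 57.9 against 141 CPM (-1.23) and Mfsd2a at 52.7 against 141 CPM (-1.36). The capillary gene Car4 stood at 31.6 against 178 CPM (-2.39). Slc22a8, 1 of the 5, and Car4 were under 33.3 CPM with Ubd, so the filter fixed their calls. Slc2a1 stood at 2548 against 3161 CPM (-0.31) and Cldn5 at 2159 against 2056 CPM (0.07). Of 9 tight junction genes and 14 oxidative phosphorylation genes 0 were 2-fold apart.

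The 10 genes furthest apart against Ubd were Tagln, Myh11, Ngp, BC100530, Stfa2l1, Myl9, Acta2, Endod1, Stfa2 and Gm5483. Each of the 10 stood under 33.3 CPM with Ubd, so the filter fixed its call. Tagln, Myh11, Myl9 and Acta2 belong to smooth muscle, and all 4 tested smooth muscle genes were lower with Ubd, each under 33.3 CPM there, so that the filter fixed these calls. Barcodes with at least 5 UMIs of pericyte and smooth muscle genes were 2 of 24 with Ubd (8.33%) and 22 of 67 without (32.8%). The neutrophil list summed to 700 CPM with Ubd and 5468 CPM without, and the oligodendrocyte list to 358 and 1928 CPM. Per barcode the medians were close, at 4.60 and 4.54 UMIs per 10000 for the neutrophil list and 3.60 and 3.32 for the oligodendrocyte list. The highest barcode without Ubd reached 2028 UMIs per 10000 of the neutrophil list, against 62.1 with Ubd. Macrophage markers summed to 679 and 1056 CPM and carcinoma markers to 3091 and 3350 CPM. Medians per barcode were 6.66 with Ubd and 7.91 without, in UMIs per 10000, for macrophage markers. For carcinoma markers they were 34.4 and 25.3, so here the median was higher with Ubd. The part of other cells' RNA in the lower genes was not tested.

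The 888 barcodes above the epithelial limit were chosen by Epcam, Krt8 and Krt18, so only other genes are informative there. Of them, 862 had fewer than 5 UMIs of the other 4 rule genes, with the carcinoma genes Wfdc2 at 4426 CPM and Krt7 at 1938 CPM and the endothelial genes Esam at 1.90 CPM and Ctla2a at 23.7 CPM. The other 26 held both kinds of gene, with Ctla2a at 6042 CPM, Esam at 461 CPM, Lrg1 at 1524 CPM and Ackr1 at 837 CPM beside Wfdc2 at 1819 CPM and Krt7 at 590 CPM. Their median depth was 14037.5 UMIs, against 5239 UMIs in the 91, and Scrublet called 3 of the 26 doublets. Ubd was detected in 11 of the 26 (42.3%), with 987 UMIs of which 705 were in 1 barcode, and in 178 of the 862 (20.6%), with 524 UMIs at a median depth of 12281 UMIs.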

How the data were processed

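Single-cell RNA was measured in 2 brain libraries, 1 per group, and groups were taken from the sample titles. The deposited matrices give whole UMI counts for each gene in each barcode, not normalized by the authors. Per the submitters' processing notes, Cell Ranger was used on genome build GRCm38. No version is named there, and how cells were called and strands counted is not given in these sources. The files list 29217 genes in all (26129 for titled positive, 26248 for titled control), and a gene missing from one was set to 0.

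Members were found by the given rule, without further filters. The members and all gene lists were chosen with earlier results of these data known. The split at 5 UMIs of Cldn5, Flt1, Pecam1 and Slco1a4 and the oligodendrocyte-gene reference were chosen after the data were seen. UMIs were summed per group and scaled to CPM. Log2 ratios used a pseudocount of 0.5 counts and conditional exact binomial intervals, over genes with a mean of at least 50 CPM in the 2 groups. A gene was called when at least 2-fold apart in CPM. At 50 CPM the sum of the 91 barcodes holds 28.6 UMIs. Where a group had 0, folds were taken from 3 counts as a floor. No test was made, since cells are not replicates.

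Reference barcodes came from the titled positive library. Those of carcinoma had at least 15 UMIs of Epcam, Krt8 and Krt18 and those of macrophages at least 15 of Csf1r and Laptm5, each with at most 1 UMI of the 5 endothelial genes. The oligodendrocyte-gene reference had at least 30 of Mbp, Mobp, Mag and Cldn11 and at most 1 of the 4 endothelial genes besides Ly6c1. Each also kept the rule's limits of 3 leukocyte and 8 epithelial UMIs, except for its own genes. Named genes were the 10 highest and 10 lowest ratios. The highest also had to exceed the carcinoma and macrophage references, and the lowest had to exceed, in the group where they were higher, 2 times the mean of the titled control library between libraries, and both references by Ubd (a limit for the split that the fixed rule did not spell out). A few genes that meet these rules are not reported here. List members and the label's markers were named too. Doublets were called with scanpy's Scrublet and only reported. Gene coordinates came from GENCODE M21, and upstream windows from RefSeq. The ratio and its calls were tested on simulated data. Python 3.11.15, numpy 2.4.6, scipy 1.17.1, pandas 2.3.3, scanpy 1.11.5 and matplotlib 3.10.9 were used.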

Additional observations from a re-analysis of the deposited data

How the results depend on the processing

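No paired analysis was possible because each group is 1 library and the values come from no test. Over 35 lists and 17 other settings, 524 of 571 list medians of titled positive over titled control stayed within 1.5-fold of the reported value, 46 moved further, and of the medians past 2-fold 1 changed sign. That was the oligodendrocyte list, at 5.86 with free RNA subtracted against -2.73, where the control's share was itself estimated from genes of that list. Between libraries, 296 of 339 ratios of single genes stayed within their counting interval and 43 moved. For the contrast by Ubd, 528 of 556 list medians and 320 of 353 single-gene ratios stayed in the same bounds, 28 and 29 moved, and 4 ratios changed sign. These were BC100530 (0.40), Stfa2l1 (1.03), Stfa2 (0.54) and Gm5483 (0.66), without barcodes holding at least 10 UMIs of neutrophil and oligodendrocyte genes. The interferon gamma list ran from 2.39 to 3.14 between libraries and from 1.02 to 1.57 between barcodes with and without Ubd, and the venous list by Ubd from -1.39 to 0.32.

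With at most 3 epithelial UMIs, 55 endothelial-like barcodes were left, of which 16.4% (7.77 to 28.8%) had Ubd, as did 3.60% of all members, and the contrast by Ubd among the 55 gave 438 higher and 428 lower genes. Thinned to 3000 UMIs it gave 317 and 415. With a mean of at least 20 CPM, the counts of higher and lower genes were 670 and 1418 over all members and 435 and 773 for endothelial-like barcodes between libraries, and 1027 and 754, and 415 and 698, by Ubd. At 200 CPM they were 114 and 172, 102 and 78, 136 and 93, and 36 and 25. Barcodes with Ackr1 numbered 41 (329 lower genes by Ubd) and those without 50 (380 higher, 376 lower). Without neutrophil and oligodendrocyte genes, the rule left 90 members, a set other than the 91 described, of which 23.3% had Ubd, with 337 lower genes between libraries and 132 higher and 233 lower by Ubd. The number of barcodes, 24 with Ubd, limits the contrast by Ubd.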

Other observations

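Some gene groups of endothelium have not been described yet. In the 91 endothelial-like barcodes against the 804, 4 of 12 tested glycolysis and hypoxia genes were at least 2-fold higher and 0 lower, with a median log2 ratio of 0.49. They were Slc2a1, the glycolytic enzyme Pkm (863 against 422 CPM, 1.03), Adm and Pfkfb3, a regulator of glycolysis in sprouting endothelium (134 against 10.1 CPM, 3.73). Pkm was below the carcinoma and macrophage references (1268 and 1034 CPM), and the filter on mean level fixed the call of Pfkfb3. Pfkfb3 also stood at 300 CPM in the 24 barcodes with Ubd and 52.3 CPM in the 67 without. Of 11 genes of flow response and clotting control 3 were at least 2-fold higher and 0 lower (median 0.39), Vwf, Anxa2 (1.42) and S100a10 (1.69), of which Anxa2 and S100a10 were below the carcinoma reference (1571 and 2052 CPM), while the anticoagulant Thbd stood at 78.6 against 131 CPM (-0.72). F3, the tissue factor that starts clotting, had 0 UMIs in the 91 and 69.6 CPM in the 804, below the limit of mean level for a call. Of 4 lipid genes tested 3 were lower and 1 higher, the higher being the vascular regulator Apold1 (470 against 118 CPM, 1.99). Of 9 TGF-beta and BMP genes 1 was higher and 1 lower, of 5 Notch genes 0 were higher and 1 lower, and of 4 NF-kappa B genes 1 was higher, Sod2 (258 against 128 CPM, 1.02), which was below the macrophage reference (303 CPM).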
